A study of Mus musculus with 6 samples.

Results

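The genes described here carry out steroid hormone synthesis, from the delivery of cholesterol into mitochondria to the conversion of progesterone and estrogen. They were chosen by name as 10 of the 54532 genes in the table: Star, Cyp11a1, Cyp17a1, Cyp19a1, Hsd3b1, Hsd17b1, Hsd17b7, Fdx1, Fdxr and Akr1c18. RNA-seq was performed on granulosa cells (GCs), the somatic cells that surround the oocyte in an ovarian follicle. The question was how gene expression in GCs differed shortly after cyclophosphamide (CTX), an alkylating chemotherapy agent. Both groups were female ICR mice aged 3 weeks that had received 5 IU of PMSG, a gonadotropin that drives follicles to grow. At 22 h after PMSG the mice were injected with PBS or with CTX at 120 mg/kg, and their GCs were taken 6 h after that. There were 3 PBS and 3 CTX samples, each a pool of the GCs of 3 mice, so that a sample gives the average of its pool and no value of a single animal.

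Steroid hormones are made from cholesterol in a chain of steps. STAR moves cholesterol to the inner mitochondrial membrane, where CYP11A1 cleaves its side chain with electrons passed from FDXR to FDX1, and HSD3B1 turns the product into progesterone. CYP17A1 makes androgens, which in the follicle is mainly the work of theca cells, while CYP19A1 (aromatase) and HSD17B1 complete estradiol in GCs. HSD17B7 acts on estrone and also in cholesterol synthesis, and AKR1C18 inactivates progesterone.

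CTX replicate 2 stood apart from the other libraries and bears on every result below. It was the lowest or the highest of the 6 samples in 58.0% of the 14463 genes tested, against 23.5% to 32.0% for each of the others. Its depth was within the range of the others, with 17841704 reads on genes against 16005869 to 18455011 over all samples. Granulosa markers were abundant in all samples, with 11 of 11 genes tested and a summed level of 13067 to 14326 FPKM in PBS and 11202 to 12059 in CTX. That sum was mostly Inha, at 9205 to 10402 FPKM in PBS and 8556 to 9180 FPKM in CTX. Of the 11 markers, 8 had negative and 3 positive log2 fold changes, and limma called none. All CTX were below all PBS in 6 and above in 2, against 14.1% and 15.0% of all genes tested. In CTX replicate 2, Inhba, Inhbb, Foxl2 and Fshr held 25.6%, 32.6%, 40.9% and 46.7% of the PBS mean, while Amh and Wt1 held 362% and 455%. FPKM counts fragments per kilobase of a gene's length, adjusted for sequencing depth, and allows levels of different genes to be compared. Values are therefore given for each CTX sample, and comparisons with and without CTX replicate 2.

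All 10 genes were lowest in CTX replicate 2. By limma none of the 10 was called different between CTX and PBS, and 1 had an unadjusted p below 0.05. Relative to the PBS mean, the median of the 10 genes was 0.07 on the log2 scale in CTX replicate 1, -3.04 in CTX replicate 2 and -0.18 in CTX replicate 3. The share of all genes tested with CTX replicate 2 as the lowest sample was 28.1%, against 10 of these 10. It lay more than 2-fold below the PBS mean in 8 of 10, against 7.88% of all genes tested. The exceptions were Hsd17b1 and Fdxr. In all 10 the CTX samples took the same order from high to low, replicate 1, replicate 3 and replicate 2, an order found in 26.1% of all genes tested. In bulk samples, fewer cells of a type and less RNA per cell cannot be told apart.

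**Figure D1:**
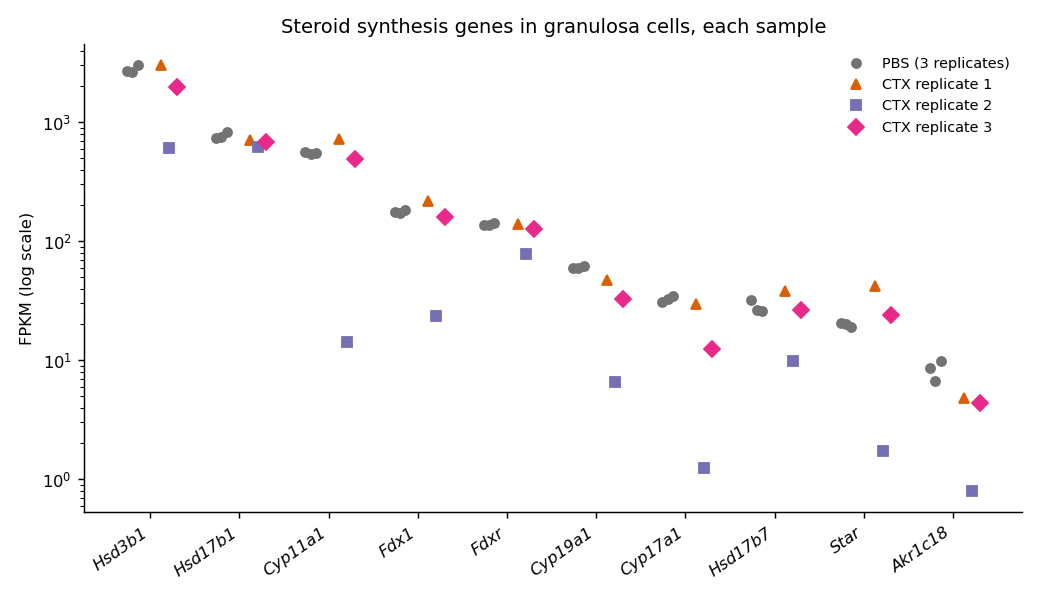
Level of each gene in each sample, in FPKM on a log axis, with the 3 PBS samples as circles and each CTX sample with its own symbol. The PBS samples lie close together, while CTX replicate 2 is the lowest sample for all 10 genes and reaches 14.4 FPKM for Cyp11a1 against 544 to 564 in PBS.

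Star and Cyp11a1 act first, on cholesterol itself. Star (ENSMUSG00000031574, chr8:25806555-25815982, plus strand; all gene coordinates are those of the deposited table on mm10) had 20.5, 20.0 and 19.0 FPKM in PBS replicates 1, 2 and 3, and 41.7, 1.73 and 24.2 FPKM in CTX replicates 1, 2 and 3. CTX replicates 1 and 3 were above all PBS samples and CTX replicate 2 was far below them, so the CTX samples lay on both sides of the PBS range. For CTX over PBS, the log2 fold change was -0.70 (SE 1.11, 95% interval -3.37 to 1.97, limma adjusted p = 0.742). Without CTX replicate 2 it was 0.68 (SE 0.21, limma adjusted p = 0.164), with both remaining CTX samples above the 3 PBS samples. Star was the one gene of the 10 whose remaining CTX samples were all higher, against 19.3% of all genes tested when that library was left out.

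Cyp11a1 (ENSMUSG00000032323, chr9:58006411-58027023, plus strand), the enzyme that commits cholesterol to steroid synthesis, had 564, 544 and 553 FPKM in the PBS samples and 727, 14.4 and 486 FPKM in CTX replicates 1, 2 and 3. CTX replicate 1 was above and CTX replicate 3 below the PBS range, and CTX replicate 2 held 2.59% of the PBS mean, 38.6-fold lower. Of all 14463 genes tested, 14 had a lower ratio to PBS in that library. Counting did not limit this value, since 1224 reads lay behind it and 41813 to 63331 behind the other CTX values. Over all samples the log2 fold change was -1.68 (SE 1.43, 95% interval -5.13 to 1.76, limma adjusted p = 0.526), and 0.10 (SE 0.17, limma adjusted p = 0.781) without CTX replicate 2. A lincRNA on the same strand, Gm17322, overlaps the start of Cyp11a1, and how reads in the overlap were counted is not given. Gm17322 was low in all samples, at 0.911 to 1.19 FPKM in PBS and 1.25, 0.0780 and 0.978 FPKM in CTX.

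Fdx1 and Fdxr, the electron donors of the mitochondrial step, differed from each other in how low they were in CTX replicate 2. Fdx1 (ENSMUSG00000032051, chr9:51943306-51963556, minus strand), encoding the ferredoxin that hands electrons to CYP11A1, had 176, 173 and 183 FPKM in PBS and 219, 23.6 and 159 FPKM in CTX. Fdxr (ENSMUSG00000018861, chr11:115268024-115277050, minus strand), encoding the reductase that charges the ferredoxin, had 136, 138 and 141 FPKM in PBS and 141, 77.7 and 127 FPKM in CTX. CTX replicate 2 thus held 13.3% of the PBS mean of Fdx1 and 56.2% of that of Fdxr. The level of Fdx1 over Fdxr was 1.25 to 1.30 in PBS, 1.56 and 1.26 in CTX replicates 1 and 3, and 0.303 in CTX replicate 2. The log2 fold changes were -0.92 (SE 0.80, limma adjusted p = 0.536) for Fdx1 and -0.31 (SE 0.22, limma adjusted p = 0.445) for Fdxr. Without CTX replicate 2 they were 0.07 and -0.05.

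Hsd3b1 (ENSMUSG00000027871, chr3:98852194-98859794, minus strand), which forms progesterone, was the most abundant of the 10 transcripts in PBS. It had 2699, 2651 and 3005 FPKM in PBS and 3005, 607 and 1970 FPKM in CTX. CTX replicate 1 reached the highest PBS value while CTX replicates 2 and 3 lay below all PBS samples, at 21.8% and 70.7% of the PBS mean. The log2 fold change was -0.86 (SE 0.56, 95% interval -2.21 to 0.49, limma adjusted p = 0.418), and -0.19 without CTX replicate 2. Of the 1806 stretches of 50 bases in its transcripts, 4.98% also occur in transcripts of other genes. Gm12431 shared the most, with 50 stretches, followed by Hsd3b6 with 38. Others were shared with Hsd3b2, Hsd3b3, Hsd3b5 and Gm12427. The Hsd3b paralogs among these were close to 0 in all samples, with none above 0.144 FPKM. Levels of Gm12431 and Gm12427 are not given here.

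Cyp17a1 and Cyp19a1, which make and aromatize androgens, were lower than all PBS samples in all 3 CTX samples. Cyp17a1 (ENSMUSG00000003555, chr19:46667165-46672974, minus strand) had 30.8, 32.9 and 34.4 FPKM in PBS and 29.6, 1.25 and 12.4 FPKM in CTX. CTX replicate 1 lay just under the lowest PBS sample, and CTX replicates 2 and 3 held 3.82% and 38.1% of the PBS mean. Cyp17a1 had a log2 fold change of -2.04 (SE 1.06, 95% interval -4.59 to 0.51, limma adjusted p = 0.329), and -0.76 (SE 0.33, limma adjusted p = 0.275) without CTX replicate 2.

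Cyp19a1 (ENSMUSG00000032274, chr9:54165937-54268110, minus strand), the aromatase that defines estrogen synthesis in GCs, had 60.0, 59.2 and 62.4 FPKM in PBS and 47.6, 6.61 and 32.5 FPKM in CTX. The groups did not overlap, and each CTX sample was lower than the PBS mean, at 78.6%, 10.9% and 53.7% of it. The log2 fold change was -1.47 (SE 0.69, 95% interval -3.14 to 0.19, limma adjusted p = 0.291), and -0.62 (SE 0.15, limma adjusted p = 0.101) without CTX replicate 2.

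The 17-beta-hydroxysteroid dehydrogenases Hsd17b1 and Hsd17b7 had unlike values. Hsd17b1 (ENSMUSG00000019301, chr11:101078411-101080527, plus strand), which makes estradiol from estrone, had 731, 753 and 819 FPKM in PBS and 714, 614 and 678 FPKM in CTX. All CTX samples were below all PBS samples, yet CTX replicate 2 still held 79.9% of the PBS mean and the largest CTX value was only 1.16 times the smallest. Its log2 fold change was -0.20 (SE 0.10, 95% interval -0.45 to 0.05, limma adjusted p = 0.324). Hsd17b7 (ENSMUSG00000026675, chr1:169949535-169969241, minus strand) had 31.8, 26.6 and 25.7 FPKM in PBS and 38.0, 9.83 and 26.7 FPKM in CTX. Its CTX samples lay above, below and within the PBS range, and its log2 fold change was -0.37 (SE 0.47, limma adjusted p = 0.671), or 0.19 without CTX replicate 2.

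Akr1c18 (ENSMUSG00000021214, chr13:4132615-4150654, minus strand), encoding the 20-alpha-hydroxysteroid dehydrogenase that inactivates progesterone, was the least abundant of the 10 in PBS. It had 8.65, 6.69 and 9.82 FPKM in PBS and 4.85, 0.794 and 4.39 FPKM in CTX. All CTX samples were below all PBS samples, at 57.8%, 9.47% and 52.4% of the PBS mean, and CTX replicates 1 and 3 were close to each other. These values rest on 148 to 192 reads in PBS and on 106, 17 and 95 reads in CTX, so that the value of CTX replicate 2 rests on few reads. The log2 fold change was -1.63 (SE 0.65, 95% interval -3.20 to -0.06, limma adjusted p = 0.245), and -0.83 (SE 0.17, limma adjusted p = 0.0569) without CTX replicate 2. Of its stretches of 50 bases, 0.608% also occur in Akr1cl.

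**Figure D2:**
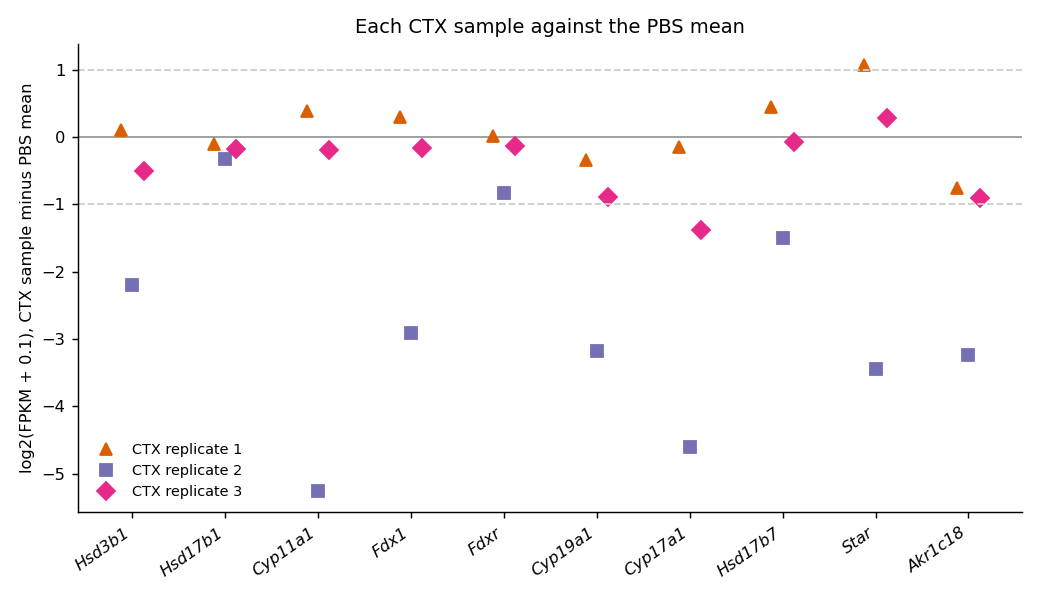
Difference of each CTX sample from the PBS mean on the log2(FPKM + 0.1) scale, by gene, with dashed lines at a 2-fold change either way. CTX replicate 2 is lowest for every gene and spans -0.32 for Hsd17b1 to -5.26 for Cyp11a1, while CTX replicate 1 spans -0.76 for Akr1c18 to 1.07 for Star.

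For calls, an adjusted p below 0.05 and a change over 2-fold were required. By limma, 0 of the 10 genes were called, against 0.802% of all genes tested called higher and 0.159% called lower. At an adjusted p below 0.05 alone, 0 of 10 were lower, against 0.360% of all genes. At an unadjusted p below 0.05, limma had 1 of 10 lower, Akr1c18, against 9.10% of all genes tested that were lower at that level. In either direction, 2840 of the 14463 genes tested were at that level. With limma's voom on rebuilt reads, 0 of the 10 were called and Akr1c18 alone was at that unadjusted level. The 95% intervals of the fold changes of Star and Cyp11a1 reach past a 2-fold change in both directions. That of Fdx1, at -2.84 to 1.005 on the log2 scale, just does so too.

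In 4 of the 10 genes, Cyp17a1, Cyp19a1, Hsd17b1 and Akr1c18, all CTX samples were below all PBS samples, against 14.1% of all genes tested. None had all CTX samples above all PBS samples, against 15.0% of all genes tested. Without CTX replicate 2 the same 4 genes were below, against 19.3% of all genes, and without CTX replicate 1 the count was 8, against 25.1% of all genes. The exact two-sided permutation test cannot give less than p = 0.1 with 3 samples a group, and these 4 genes gave that value. All 10 fitted log2 fold changes were negative, against 7429 of the 14463 genes tested. The median of the 10 was -0.89, against -0.01 over all genes tested. Without CTX replicate 2 the median was -0.10, and Star, Cyp11a1, Hsd17b7 and Fdx1 had positive values.

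**Figure D3:**
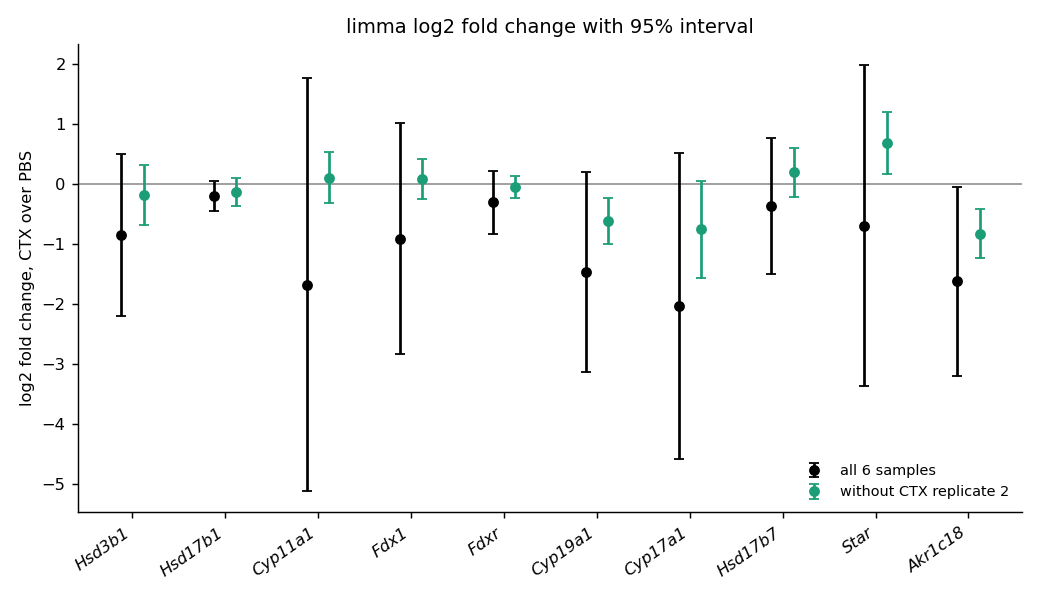
The limma log2 fold change of CTX over PBS with its 95% interval for each gene, from all 6 samples in black and without CTX replicate 2 in green. The intervals from all samples include 0 for every gene but Akr1c18, and leaving out CTX replicate 2 moves Star from -0.70 to 0.68 and Cyp11a1 from -1.68 to 0.10.

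The 10 genes varied little among PBS samples and widely among CTX samples. The largest PBS value was 1.04 to 1.47 times the smallest. Among CTX samples that ratio was 50.7 for Cyp11a1, 24.1 for Star, 23.7 for Cyp17a1, 9.28 for Fdx1 and 7.20 for Cyp19a1, and it was 1.81 for Fdxr and 1.16 for Hsd17b1. The median SD of the 10 genes on the log2 scale was 0.07 in PBS and 1.44 in CTX, and over all genes tested it was 0.10 and 0.18. Together they took 1.03% to 1.10% of reads in PBS, and 1.15%, 0.238% and 0.825% in CTX replicates 1, 2 and 3.

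The order of the levels in PBS was Hsd3b1, Hsd17b1, Cyp11a1, Fdx1, Fdxr, Cyp19a1, Cyp17a1, Hsd17b7, Star and Akr1c18. Of the neighbours in this order, Cyp17a1 and Hsd17b7 overlapped between samples and the others did not. In CTX replicate 2 the order changed, with Hsd17b1 first at 614 FPKM, just ahead of Hsd3b1 at 607 FPKM. The level of Hsd17b1 over Cyp11a1 was 1.30 to 1.48 in PBS, 0.982 and 1.40 in CTX replicates 1 and 3, and 42.8 in CTX replicate 2. Cyp11a1 over Fdx1 was 3.02 to 3.20 in PBS, 3.33 and 3.05 in CTX replicates 1 and 3, and 0.609 in CTX replicate 2. Cyp19a1 over Cyp11a1 was 0.106 to 0.113 in PBS, 0.0654 and 0.0669 in CTX replicates 1 and 3, and 0.460 in CTX replicate 2, so that aromatase was low relative to Cyp11a1 in the first pair and high in the last.

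Across the 6 samples the 45 pairs of these genes had Pearson correlations of log2(FPKM + 0.1) from 0.655 to 0.999, with a median of 0.956. The 6 points share the same libraries, and CTX replicate 2 lies far from the others. The tested genes most like Cyp11a1 over the 6 samples were Ecm1, Wisp2 and Oxtr, with correlations of 0.999. Wisp2 had 17.04 to 19.1 FPKM in PBS and 26.7, 0.439 and 16.5 FPKM in CTX. Oxtr, encoding the oxytocin receptor, had 21.97 to 26.2 FPKM in PBS and 29.5, 0.824 and 20.3 FPKM in CTX. Ecm1 and Wisp2 were also the nearest to Fdx1, and Cbfa2t3, Tom1l1 and Rhox5 were the nearest to Cyp19a1.

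Genes that make or supply cholesterol, the substrate, came next. Of 18 tested enzymes of cholesterol synthesis, 0 passed the limma threshold, and voom called 0 as well. All 18 log2 fold changes were negative, against 7429 of the 14463 genes tested. At an unadjusted limma p below 0.05, 4 were lower, against 9.10% of all genes tested that were lower at that level. In 8 of the 18 all CTX samples were below all PBS samples, against 14.1% of all genes tested. CTX replicate 2 was the lowest sample in 18, against 28.1% of all genes tested. It was more than 2-fold below the PBS mean in 16, against 7.88%. The median log2 fold change was -0.69, and -0.30 without CTX replicate 2. Hmgcs1, an early enzyme of the mevalonate pathway, had 51.7, 47.8 and 47.7 FPKM in PBS and 58.7, 15.9 and 36.9 FPKM in CTX. Fdft1, which makes squalene, had 38.6, 41.1 and 42.3 FPKM in PBS and 42.1, 12.1 and 29.2 FPKM in CTX. Both were low in CTX replicate 2 and intermediate in CTX replicate 3, as Hsd3b1 was.

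Of 14 tested genes for cholesterol supply, limma and voom called 0, and the median log2 fold change was -0.10. Only 1, Soat1, was lower at an unadjusted limma p below 0.05, against 9.10% of all genes tested. Scarb1, the receptor for high-density lipoprotein, had 91.0, 85.3 and 92.7 FPKM in PBS and 120, 26.6 and 65.1 FPKM in CTX. Soat1, which esterifies cholesterol, had 85.7, 83.6 and 79.4 FPKM in PBS and 76.5, 60.4 and 63.0 FPKM in CTX, with all CTX samples lower. Vdac1, a channel of the outer mitochondrial membrane, had 106 to 110 FPKM in PBS and 110 to 116 FPKM in CTX. The substrate genes were thus not alike in CTX replicate 2.

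Partners and relatives of the 10 genes were described in the same way. None of the 5 tested genes of electron transfer other than the mitochondrial pair, and none of the 4 other tested Hsd17b genes, was called by limma or voom or had an unadjusted limma p below 0.05. None of these 9 was more than 2-fold from the PBS mean in CTX replicate 2. That library was still the lowest sample in 4 of the 5 electron transfer genes, all but Cyb5a, against 28.1% of all genes tested. The order of replicates 1, 3 and 2 was found in 4 of the 5, against 26.1%. Both counts were 0 for the 4 other Hsd17b genes. In CTX replicate 2, Cyb5b and Cyb5r3 held 68.6% and 95.5% of the PBS mean. Cyb5a, encoding cytochrome b5, had 295, 310 and 358 FPKM in PBS and 304, 384 and 315 FPKM in CTX. Hsd17b10 had 76.7, 73.4 and 86.4 FPKM in PBS and 75.6, 81.3 and 77.6 FPKM in CTX. Of 8 relatives of Akr1c18, 3 were tested and 0 were called by limma or voom, with 0 at an unadjusted p below 0.05. Akr1cl, which shares sequence with Akr1c18, had 392, 385 and 412 FPKM in PBS and 437, 448 and 437 FPKM in CTX, higher in all CTX samples. Akr1c14 had 276, 260 and 272 FPKM in PBS and 282, 212 and 230 FPKM in CTX. Akr1c13 had 6.57, 6.77 and 7.15 FPKM in PBS and 2.08, 0.865 and 18.7 FPKM in CTX, with CTX replicates 1 and 2 below and CTX replicate 3 above all PBS samples. None of the 6 relatives of Hsd3b1 reached the level for testing.

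Of 6 tested genes for other steroid conversions and for inactivation, limma called 1 lower, against 0.159% of all genes tested. Sult1e1, the estrogen sulfotransferase, fell with CTX, from 50, 136 and 64 reads in PBS to 3, 0 and 0 reads in CTX replicates 1, 2 and 3. Each CTX sample was at the floor of 3 reads, so that Sult1e1 was at least 28.2-fold lower in CTX than in PBS (limma adjusted p = 0.00985). The call was kept without CTX replicate 2 (limma adjusted p = 0.0103), but it was lost without any one of the PBS replicates, without CTX replicate 3 and by voom, with adjusted p of 0.0504 to 0.0882. Hsd11b2, which inactivates glucocorticoids, had 114, 110 and 126 FPKM in PBS and 93.2, 74.5 and 88.3 FPKM in CTX (limma adjusted p = 0.106).

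**Figure D4:**
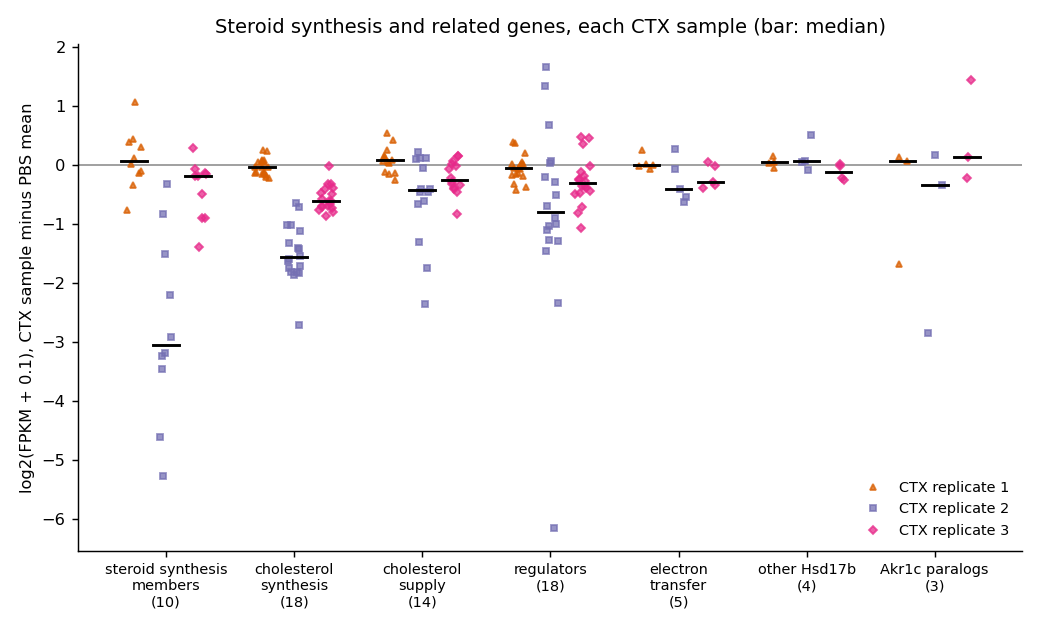
Difference of each CTX sample from the PBS mean on the log2(FPKM + 0.1) scale for the 10 steroid synthesis genes and the tested genes of 6 related lists, with black bars at the medians. In CTX replicate 2 the median is -3.04 for the steroid synthesis genes, -1.56 for cholesterol synthesis and 0.06 for the other Hsd17b genes.

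Of 18 tested regulators of these genes, receptors and transcription factors, limma and voom called 0. At an unadjusted limma p below 0.05 there were 4, all lower, against 9.10% of all genes tested that were lower at that level. In 6 of the 18 all CTX samples were below all PBS samples, against 14.1% of all genes tested. The median log2 fold change was -0.39. CTX replicate 2 was more than 2-fold below the PBS mean in 8, against 7.88% of all genes tested. It was more than 2-fold above that mean in 2, against 770 of all 14463 genes tested. Prkar2b, a regulatory subunit of protein kinase A, had 815, 779 and 795 FPKM in PBS and 767, 389 and 584 FPKM in CTX. Foxl2, a transcription factor of GCs, had 186, 184 and 193 FPKM in PBS and 145, 76.9 and 107 FPKM in CTX, and its groups did not overlap. Foxl2 was called by limma when CTX replicate 1 was left out. Nr5a2, a nuclear receptor, had 243, 229 and 223 FPKM in PBS and 224, 162 and 181 FPKM in CTX. Lhcgr, the receptor for luteinizing hormone, was singled out after its values were seen, with 112, 113 and 108 FPKM in PBS and 129, 1.48 and 53.1 FPKM in CTX. It followed the same order of CTX samples as the 10 genes. That order was found in 12 of the 18 tested regulators and in 26.1% of all genes tested.

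Markers of other cells differed in CTX replicate 2, and their part in the low levels was not tested. Luteal markers summed to 195 to 207 FPKM in PBS and 264, 15.3 and 120 FPKM in CTX, with Lhcgr and Prlr among the 5. Both were also on the list of regulators, and Lhcgr alone had 108 to 113 FPKM in PBS. This sum therefore cannot tell luteal cells from GCs. Theca markers, of interest for Cyp17a1, summed to 17.4 to 17.7 FPKM in PBS and 22.9, 31.2 and 24.0 FPKM in CTX. All 6 tested theca markers had positive log2 fold changes, but that of Enpep was only 0.02. In CTX replicate 2, Insl3, Aldh1a1, Ptch1, Nr2f2 and Tcf21 held 240%, 219%, 181%, 132% and 118% of the PBS mean, and Enpep held 37.6%. Hhip and Gli1, below the level for testing, held 43.5% and 91.8% there. Insl3, the hormone that defines theca cells, was at 0.270 to 0.396 FPKM in PBS and 0.354, 0.814 and 1.16 FPKM in CTX. These Insl3 values rest on 3, 4 and 4 reads in PBS and 4, 9 and 13 reads in CTX, at or near the floor of 3 reads. Leukocyte markers summed to 24.8 to 28.0 FPKM in PBS and 41.0, 74.3 and 28.4 FPKM in CTX, with 6 of 8 tested markers higher and 2 lower. Stromal markers summed to 26.8 to 28.0 FPKM in PBS and 53.1, 11.7 and 41.2 FPKM in CTX. Oocyte markers summed to 34.1 to 73.5 FPKM in PBS and 47.8 to 85.0 FPKM in CTX, and endothelial markers to 7.81 to 8.15 and 3.39 to 7.14 FPKM. None of the markers of 9 cell types was called by limma, and none was at 0 in all samples.

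Promoter sequence is shown for Hsd3b1, the most abundant of the 10, for Fdx1 and for Akr1c18, the least abundant. Fdx1 had Ecm1 and Wisp2 among its nearest genes in common with Cyp11a1. RefSeq windows on GRCm38.p6 were available for 7 of the 10 genes. Letters searched on both strands were TCAAGGTCA and AAGGTCA (bound by NR5A receptors), TGACGTCA (bound by CREB) and AGATAA (bound by GATA factors). The longer NR5A motif holds the shorter. These occur in 0.423%, 4.72%, 1.79% and 11.2% of all 32851 windows. Among windows of the 7 genes only AGATAA was found, in Hsd3b1, as its reverse complement, which is in capitals and starts 134 bases before the RefSeq start. Each line holds 150 bases before that start, 5′ to 3′ on the gene's strand, at chr3:98859795-98859944, chr9:51963603-51963752 and chr13:4150647-4150796, all minus.
Hsd3b1: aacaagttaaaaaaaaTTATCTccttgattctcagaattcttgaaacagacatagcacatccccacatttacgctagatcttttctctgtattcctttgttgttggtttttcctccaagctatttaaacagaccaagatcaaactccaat
Fdx1: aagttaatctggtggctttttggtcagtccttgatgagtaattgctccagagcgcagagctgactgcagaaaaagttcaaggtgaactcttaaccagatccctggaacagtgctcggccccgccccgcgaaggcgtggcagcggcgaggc
Akr1c18: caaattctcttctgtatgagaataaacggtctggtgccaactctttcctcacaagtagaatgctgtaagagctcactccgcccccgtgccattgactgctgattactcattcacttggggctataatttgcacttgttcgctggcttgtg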

How the data were processed

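RNA was extracted with an RNeasy kit and libraries were made with a NEBNext Ultra kit, per the labels. The authors deposited 1 table of FPKM values for 54532 genes and 6 samples. The submitters' processing notes name CASAVA 1.8, fastp, HISAT2 2.0.5, featureCounts 1.5.0-p3, DESeq2 1.20.0 and mm10, and strandedness is not given in the sources used here. The table also holds the authors' group means, log2 fold change and p-values, which were not used. FPKM times gene length was a whole multiple of the value of a single read for 100% of nonzero entries (relative tolerance 1e-05), which gave the read numbers, 16005869 to 18455011 per sample. The 95% intervals of fold changes come from the limma fit and reflect the spread between samples, while the floor of 3 reads covers counting error only.

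Values were compared as log2(FPKM + 0.1), a scale that understates changes of low genes, with limma 3.58.1 (lmFit, eBayes with trend) in R 4.3.3 on the 14463 genes that averaged at least 0.5 FPKM, with Benjamini-Hochberg adjustment over all of them. All 10 steroid synthesis genes passed this filter. A gene was called at an adjusted p below 0.05 and a change over 2-fold. Exact permutation tests were two-sided. The fit was tested on simulated data with the spread of the PBS samples. That simulation held no outlying sample like CTX replicate 2, so it does not show how the fit handles one. Other steps used pandas 2.3.3, SciPy 1.17.1, NumPy 2.4.6 and matplotlib 3.10.9 under Python 3.11.15.

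The genes and lists were chosen with earlier results of these data known. The text names all 10 genes, any gene of a related list past the threshold, the 3 with the highest mean FPKM in each list, close copies, and the 3 genes most correlated with each of the 10. Coordinates matched GENCODE M21 for 9 of the 10 genes, and those of Cyp17a1 differed. Alternatives were other pseudocounts, filters and scalings, arrayWeights, a replicate block, eBayes without trend, voom on the rebuilt reads and each sample left out.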

Additional observations from a re-analysis of the deposited data

How the results depend on the processing

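The count of called steroid synthesis genes was 0 under all alternatives but arrayWeights, with 1 (Cyp17a1, log2 fold change -1.39). At an adjusted p below 0.05, arrayWeights gave 4 genes (Cyp17a1, Cyp19a1, Hsd17b1 and Akr1c18), and all others gave 0. Its iteration did not converge, and its weights were 0.164 (CTX replicate 2) to 16.6 (CTX replicate 3). Star changed sign under arrayWeights, to 0.26, and with 1 sample left out Star ran from -1.58 to 0.68, Cyp11a1 from -2.72 to 0.10, Hsd17b7 from -0.78 to 0.19 and Fdx1 from -1.53 to 0.074. Their positive values were those without CTX replicate 2 and their lowest those without CTX replicate 1. The median log2 fold change of the 10 genes ran from -1.56 to -0.10 with 1 sample left out and from -0.98 to -0.19 otherwise. The count with all CTX below all PBS was 4 to 8 with 1 sample left out, the 8 being without CTX replicate 1, against 17.5% to 25.1% of all genes, the 25.1% also without CTX replicate 1. For the other pathway genes, the count of 1 became 0 with a mean FPKM of at least 5, which does not test Sult1e1, and with voom. With 1 sample left out it was 0 to 2, the 2 being Sult1e1 and Foxl2 without CTX replicate 1.

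With the replicate number as a replicate block, the steroid synthesis count remained at 0 and the count for other pathway genes was 0 (Sult1e1, adjusted p = 0.0978). Over all genes it fell from 116 higher and 23 lower to 48 and 2. The deviations of samples with the same number had correlations of 0.056, 0.024 and 0.006, each sample holds different mice, and the labels name no shared batch.

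With 3 samples a group and 17 to 192 reads on Akr1c18, small changes of low genes could not be resolved.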
